A study of Mus musculus with 36 samples.

Results

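Slc17a7, Tbr1, Emx1 and Neurod6 are used here as markers of excitatory neurons of the cerebral cortex. For neurons of the thalamus the markers are Prkcd, Tcf7l2, Lhx9 and Shox2. Whether any of them is limited to those cells was not tested. These 8 genes, of 18820 with a transcript cluster annotated to a single gene, were followed on arrays of mouse hypothalamus. They were chosen because their intensities on these same arrays differed widely between mice, so their levels and their differences between groups are given as a description, without a test. Of the 8 genes, 7 were over the minimum intensity of 20 on at least 3 arrays, and Neurod6 was not.

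The hypothalamus lies below the thalamus, and neither the cortex nor the thalamus is part of it. Cortical projection neurons are born from Emx1-expressing progenitors of the dorsal telencephalon, and they load glutamate into vesicles through Slc17a7, also called VGLUT1. Thalamic relay neurons arise from the diencephalon under transcription factors of the LIM homeobox, TCF/LEF and paired-like homeobox families, and they mainly use Slc17a6, or VGLUT2. In RNA of a whole tissue piece, more cells of a type and more RNA per cell cannot be told apart.

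The mice were male C57BL/6, were housed singly and fed a standard diet, and received 1 intraperitoneal injection of 50 µl shortly before the dark phase. The sources used here do not give their age. Saline vehicle was given to Control mice and 15 pg TNFα to the TNF group, while IL-6 alone was given at 50 pg (IL-6 Low) or 800 pg (IL-6 High). A further pair of groups received 15 pg TNFα mixed with IL-6, at 50 pg (TNF + IL-6 Low) or at 800 pg (TNF + IL-6 High). Hypothalami were taken 5 h later, and 6 mice of each group had an array each, 36 arrays in all.

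TNF replicate 4 stood apart, with a median correlation with the other arrays of 0.302 against 0.988 to 0.994 for the other 35, and it was left out of every value below unless it is named. Its intensities of the 8 genes lay between 4.98 and 6.57 on the log2 scale. The labelled tissue was checked on its own markers. Oxt, Sst, Avp and Hcrt, the highest of 10 listed peptide genes, had mean log2 intensities of 10.2, 10.5, 9.63 and 9.30. The transcription factors Fezf1, Sim1 and Nkx2-1 had 7.99, 7.20 and 6.43, and each of these genes was over the minimum on all 35 arrays. Whether Sst or the others are limited to the hypothalamus was not tested. Crh, the lowest of the listed peptide genes (4.81), was over the minimum on 34 of 35. Rax, a homeobox gene of hypothalamic progenitors and tanycytes, was over it on 5 of 35. For Control replicates 5 and 6 the labels and the array names give different mouse numbers but the same group.

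The stretches upstream of the genes are shown because 4 thalamic genes that moved together from array to array (below) can be compared in sequence with each other and with Slc17a7, the cortical gene of widest spread. RefSeq promoters of build GRCm38.p6 were matched for all 8 genes, and the 250 bases before the start of transcription were searched on both strands for the TCF/LEF core CTTTGA, the homeodomain core TAATTA, the E-box CANNTG and the T-box core GGTGTGA. Capitals mark CTTTGA, which reads TCAAAG on the other strand, in the thalamic genes, and the E-box in Slc17a7. The stretches are Prkcd (chr14:30626209-30626458, minus strand), Shox2 (chr3:66981772-66982021, minus), Tcf7l2 (chr19:55741560-55741809, plus), Lhx9 (chr1:138842445-138842694, minus) and Slc17a7 (chr7:45163671-45163920, plus).
Prkcd: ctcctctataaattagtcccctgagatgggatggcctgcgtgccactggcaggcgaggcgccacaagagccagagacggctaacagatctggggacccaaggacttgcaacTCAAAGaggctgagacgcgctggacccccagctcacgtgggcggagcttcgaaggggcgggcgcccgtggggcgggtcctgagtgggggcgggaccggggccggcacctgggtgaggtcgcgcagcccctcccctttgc
Shox2: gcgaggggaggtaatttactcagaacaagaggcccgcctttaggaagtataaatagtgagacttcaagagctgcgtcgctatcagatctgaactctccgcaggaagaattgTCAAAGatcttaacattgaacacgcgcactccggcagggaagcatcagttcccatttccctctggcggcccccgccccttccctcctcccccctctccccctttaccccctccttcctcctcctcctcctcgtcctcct
Tcf7l2: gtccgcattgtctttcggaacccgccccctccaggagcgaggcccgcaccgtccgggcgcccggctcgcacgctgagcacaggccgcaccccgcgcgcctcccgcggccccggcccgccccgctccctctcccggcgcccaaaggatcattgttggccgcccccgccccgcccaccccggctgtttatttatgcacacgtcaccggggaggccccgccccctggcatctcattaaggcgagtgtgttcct
Lhx9: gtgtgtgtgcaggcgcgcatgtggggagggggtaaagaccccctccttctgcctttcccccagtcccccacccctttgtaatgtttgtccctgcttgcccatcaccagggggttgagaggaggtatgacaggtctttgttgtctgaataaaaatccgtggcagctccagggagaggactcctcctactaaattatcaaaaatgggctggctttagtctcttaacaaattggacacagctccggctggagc
Slc17a7: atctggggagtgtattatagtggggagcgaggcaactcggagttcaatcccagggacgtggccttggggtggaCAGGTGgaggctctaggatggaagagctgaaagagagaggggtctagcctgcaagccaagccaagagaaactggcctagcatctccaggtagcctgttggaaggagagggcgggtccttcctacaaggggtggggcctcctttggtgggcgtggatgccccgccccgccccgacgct

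The TCF/LEF core was found 1 time in the Prkcd stretch shown and in those of Shox2 and Tbr1. It is held by 13.8% of the 32851 mouse promoter stretches of the same length. It was not among the letters of the stretches of Tcf7l2 and Lhx9 shown above. The homeodomain core occurred 2 times in Tbr1, where 4.84% of stretches hold it, and in none of the 4 thalamic genes. The E-box, held by 66.2% of stretches, occurred 1 time in Slc17a7, Tbr1, Emx1 and Lhx9, 2 times in Neurod6 and in the Prkcd stretch shown, and in neither Tcf7l2 nor Shox2. Those of Prkcd and Lhx9 are not in capitals. The T-box core, held by 3.33%, was in none of the 8 genes. Prkcd and Tcf7l2 each have a further promoter that is not shown. That of Prkcd held 3 E-boxes and no TCF/LEF core, and that of Tcf7l2 held none of the motifs. The stretches of Lhx9 and Tbr1 lie wholly inside the annotated gene, which for Lhx9 is chr1:138825186-138848839. Most of the Prkcd stretch shown, its marked core included, is also inside the annotated gene, which runs from 30595353 to 30626414. The Tcf7l2 stretch shown reaches a few bases into its gene, which begins at 55741797. Which gene holds a motif thus depends on the start chosen. These matches describe letters and are not binding sites.

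The intensities of 7 of the 8 genes spread widely among mice that had received the same injection. The SD within groups was 1.12 (log2) for Slc17a7, 1.12 for Prkcd, 0.80 for Shox2, 0.68 for Tbr1, 0.64 for Tcf7l2, 0.57 for Lhx9, 0.41 for Neurod6 and 0.18 for Emx1. Over the 15049 genes above the minimum intensity the median SD was 0.17 and the 99th percentile 0.44. Only 5 of them had a larger SD than Slc17a7 and 6 a larger SD than Prkcd, whereas 5849 had a larger SD than Emx1. From the lowest to the highest array Slc17a7 spanned 25.8-fold, Prkcd 12.7-fold, Tbr1 11.1-fold, Shox2 6.73-fold, Lhx9 6.40-fold, Tcf7l2 5.38-fold and Emx1 1.71-fold.

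**Figure D1:**
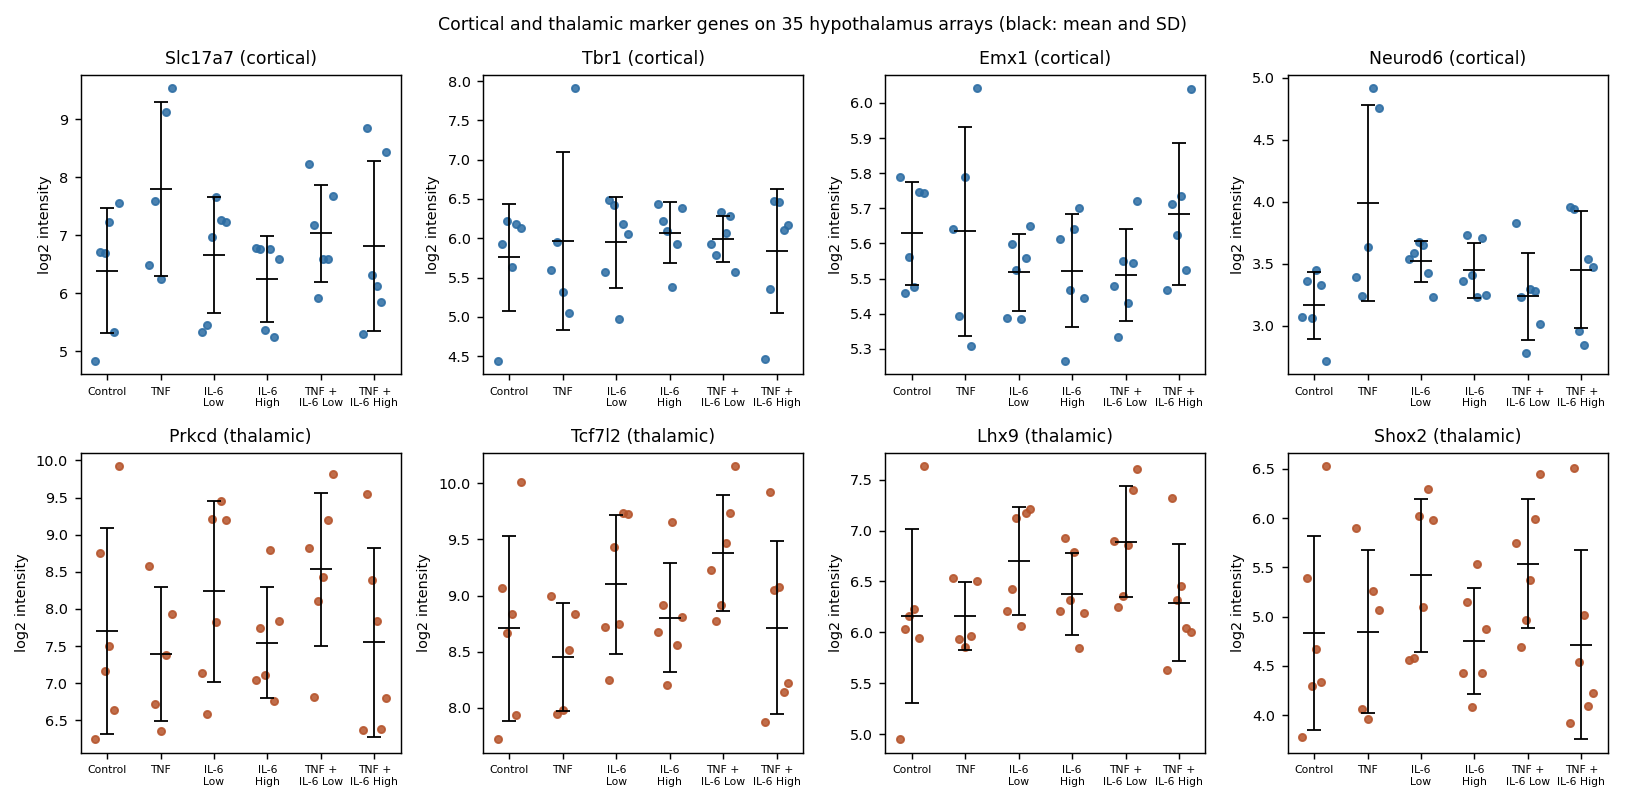
Log2 intensity of each of the 8 genes (vertical axis, its own range in each panel) on 35 arrays in 6 groups (horizontal axis), with cortical genes in blue and thalamic genes in orange. Points are arrays in the order of their replicate numbers, and black lines give the mean and SD of a group. Within Control alone Prkcd runs from 6.25 to 9.92, and the groups overlap in all 8 panels.

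Prkcd encodes protein kinase C delta, a lipid-activated kinase abundant in thalamic relay neurons. In Control its log2 intensity was 6.25 on the lowest array, 7.33 at the median and 9.92 on the highest. On the 5 TNF arrays it was 8.57, 6.71, 6.35, 7.38 and 7.93. Both groups thus held arrays that were high and arrays that were low, and the TNF arrays lay inside the range of Control.

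With IL-6 alone the lowest, median and highest values of Prkcd were 6.59, 8.51 and 9.45 at the low dose and 6.76, 7.42 and 8.80 at the high dose. With TNFα added they were 6.82, 8.62 and 9.82 at the low dose of IL-6 and 6.37, 7.32 and 9.55 at the high dose. In every treated group all arrays of Prkcd lay between the lowest and the highest Control array. The group means ran from TNF + IL-6 Low (8.53) through IL-6 Low (8.24), Control (7.70), TNF + IL-6 High (7.55) and IL-6 High (7.55) to TNF (7.39), and no gap between neighbours exceeded the SD within groups.

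Tcf7l2, a transcription factor of the TCF/LEF family that acts downstream of Wnt signals, followed the same arrays. Its Control values had a lowest, median and highest of 7.72, 8.75 and 10.02, and its TNF + IL-6 Low values 8.78, 9.35 and 10.15. The TNF arrays read 8.99, 7.94, 7.98, 8.52 and 8.83. All 5 of the latter lay inside the Control range, and TNF + IL-6 Low replicate 6 was the highest of the 35 arrays. In the remaining groups the arrays lay from 8.25 to 9.74 (IL-6 Low), from 8.20 to 9.65 (IL-6 High) and from 7.87 to 9.92 (TNF + IL-6 High). From high to low the group means were 9.38 in TNF + IL-6 Low and 9.10 in IL-6 Low, followed by IL-6 High (8.80), TNF + IL-6 High (8.71), Control (8.71) and TNF (8.45), with no gap over the SD within groups.

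Lhx9, a LIM homeobox transcription factor of the developing thalamus, had a lowest, median and highest value of 4.95, 6.10 and 7.63 in Control. In TNF it was 6.53, 5.93, 5.86, 5.96 and 6.51. In TNF + IL-6 Low it was 6.25, 6.87 and 7.60, so all 6 arrays of that group lay above the Control median and below the highest Control array. In the remaining groups the arrays lay from 6.06 to 7.22 (IL-6 Low), from 5.84 to 6.92 (IL-6 High) and from 5.63 to 7.32 (TNF + IL-6 High). The means ran from TNF + IL-6 Low (6.89) through IL-6 Low (6.70), IL-6 High (6.38), TNF + IL-6 High (6.29) and Control (6.16) to TNF (6.16), again with no gap over the SD within groups.

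Shox2, a paired-like homeobox transcription factor known in thalamus, limb and heart, was over the minimum intensity on 27 of 35 arrays. Its lowest, median and highest values were 3.78, 4.50 and 6.52 in Control and 4.69, 5.56 and 6.45 in TNF + IL-6 Low. In TNF it was 5.90, 4.06, 3.96, 5.26 and 5.07. In these groups too the treated arrays stayed inside the Control range. In the remaining groups the arrays lay from 4.56 to 6.30 (IL-6 Low), from 4.09 to 5.54 (IL-6 High) and from 3.92 to 6.51 (TNF + IL-6 High). The means were 5.54 in TNF + IL-6 Low, 5.42 in IL-6 Low, 4.85 in TNF and 4.83 in Control, followed by IL-6 High (4.75) and TNF + IL-6 High (4.72), and no neighbours in this order differed beyond the SD within groups.

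Slc17a7, the vesicular glutamate transporter of cortical and hippocampal neurons, had a lowest, median and highest value of 4.84, 6.70 and 7.55 in Control. On the 5 TNF arrays it was 6.48, 7.59, 6.26, 9.13 and 9.53. TNF replicates 2, 5 and 6 lay above the highest Control array, although replicate 2 by only a small amount, and replicates 1 and 3 lay inside the Control range. With IL-6 alone the arrays lay from 5.34 to 7.66 at the low dose and from 5.24 to 6.78 at the high dose, and with both cytokines from 5.93 to 8.22 and from 5.30 to 8.84. The means were 7.80 in TNF, 7.03 in TNF + IL-6 Low, 6.81 in TNF + IL-6 High, 6.66 in IL-6 Low, 6.39 in Control and 6.25 in IL-6 High, with no gap over the SD within groups.

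Neurod6, a basic helix-loop-helix factor of cortical and hippocampal pyramidal neurons, was near the floor of the arrays and over the minimum intensity on 2 arrays, both of the TNF group. In Control its lowest, median and highest values were 2.72, 3.20 and 3.45, and in TNF its values were 3.40, 3.24, 3.64, 4.92 and 4.76. TNF replicates 5 and 6 were its 2 highest arrays of the 35 and were also the 2 highest for Slc17a7. In the other 4 groups no array exceeded 3.96. The gap between the highest mean (3.99, TNF) and the next (3.52, IL-6 Low) was 0.47, which was over the SD within groups of 0.41, while the means of TNF + IL-6 High (3.45), IL-6 High (3.45), TNF + IL-6 Low (3.24) and Control (3.17) lay closer together than this SD.

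Tbr1, a T-box transcription factor of deep-layer cortical neurons, had a lowest, median and highest value of 4.44, 6.03 and 6.22 in Control, and 5.60, 5.95, 5.31, 5.05 and 7.91 on the TNF arrays. TNF replicate 6 alone lay above the Control range in that group. The other 4 groups had medians between 5.99 and 6.15, and their means, with those of TNF and Control, ran only from 6.07 in IL-6 High to 5.76 in Control. Emx1, a homeobox gene of the dorsal telencephalon, stayed between 5.27 and 6.04 on all 35 arrays, and its group means lay between 5.51 and 5.68. For neither gene did neighbouring group means differ beyond the SD within groups.

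Each of the 5 treated groups was compared with the same 6 Control arrays, so these comparisons are not independent. The shares of all genes past a fold, given below, come mostly from genes of smaller spread. Their median SE was 0.1 for TNF and 0.0955 for each of the other groups. These shares are thus no measure of how often genes of wide spread pass the fold by chance. In the TNF group the mean of Slc17a7 was higher by 1.41 ± 0.68 (log2, SE), or 2.65-fold. It was the 1 member of the 7 over the minimum intensity past a fold of 1.5, which 0.153% of all 15049 genes passed upward. The mean of Neurod6 was higher by 0.82 ± 0.25, but no fold is given, since all 6 Control arrays and 3 of the 5 TNF arrays were under the minimum intensity. The other 6 members differed from Control by -0.31 (Prkcd) to 0.21 (Tbr1), with all 4 thalamic members between -0.31 and 0.02. Without Control replicate 6 the differences of Prkcd, Tcf7l2, Lhx9 and Shox2 were 0.13, 0.01, 0.29 and 0.35, and without TNF replicate 6 that of Tbr1 was -0.28, so these differences had no settled sign. Slc17a7 was higher by 0.97 without TNF replicate 6, 1.79 without TNF replicate 3 and 0.66 with array weights, and Neurod6 by 0.59 without TNF replicate 5. Within the rows of positions named in the array names, the difference of Slc17a7 was 1.64, 0.22, 2.85 and 1.98 in rows E, F, G and H, and that of Neurod6 was 0.32, 0.23, 1.53 and 2.04, with 1 or 2 arrays per group in a row.

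In the TNF + IL-6 Low group the means of all 4 thalamic members and of Slc17a7 were higher than in Control by a fold over 1.5, which 0.173% of all genes passed upward. Prkcd was higher by 0.83 ± 0.65 (log2, SE), Lhx9 by 0.73 ± 0.33, Shox2 by 0.71 ± 0.46, Tcf7l2 by 0.67 ± 0.37 and Slc17a7 by 0.64 ± 0.65. Tbr1, Neurod6 and Emx1 differed by 0.23, 0.07 and -0.12. The first 4 genes moved together from array to array and are not separate support for a difference. The share over all genes is not matched to the wide spread of these 5 genes. Without Control replicate 1, the lowest Control array for each of them, the differences of Prkcd, Tcf7l2, Lhx9 and Shox2 were 0.54, 0.48, 0.49 and 0.49, and without Control replicate 6, the highest, they were 1.27, 0.94, 1.03 and 1.04. Slc17a7 was higher by 0.33 without Control replicate 1, by 0.40 without TNF + IL-6 Low replicate 1 and by 0.40 with array weights. Without Control replicate 1 all 5 genes were under the fold of 1.5. Within rows E, F, G and H the difference of Slc17a7 was 3.38, -0.14, 0.32 and 0.12, and that of Prkcd was 2.57, -0.49, 1.75 and -0.10, so neither was of 1 direction within rows, each of which held 1 or 2 arrays per group.

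In IL-6 Low the thalamic members were higher by 0.39 to 0.59, of which Shox2 alone was past a fold of 1.5, at 1.504-fold, while 0.0199% of all genes were past it upward. Lhx9, at 1.46-fold, was the nearest member that did not reach the fold, and Prkcd was at 1.45-fold. The difference of Shox2 was 0.38 without Control replicate 1 and 0.93 without Control replicate 6. In IL-6 High the 8 members differed from Control by -0.16 to 0.31, with TNFα added by -0.15 to 0.42, and none was past the fold, which 0.0133% and 0.0598% of all genes passed upward. The sign of each thalamic member in these last 2 comparisons turned with at least 1 array left out. No member was lower by this fold in any group, where 0.0598% of all genes were for TNF, 0.00664% for IL-6 Low, 0.12% for IL-6 High, 0.106% for TNF with IL-6 Low and 0.00664% for TNF with IL-6 High. For the mean of the 5 treated groups, where 0.0199% of all genes were past the fold in each direction and no member was, Slc17a7 was higher by 0.52 ± 0.50 and the other 7 members differed by -0.05 to 0.36. In that comparison, the sign of Prkcd (0.15) turned without Control replicate 1 (-0.14).

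**Figure D2:**
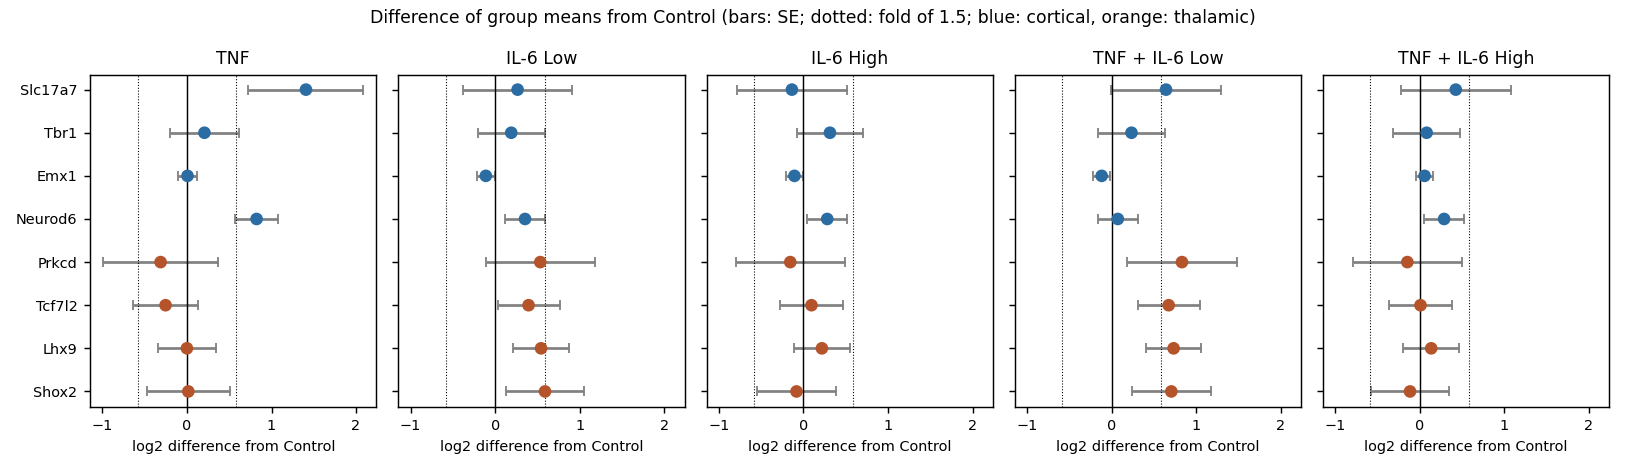
Log2 difference of the group mean from Control (horizontal axis) for each of the 8 genes (vertical axis) in the 5 treated groups (panels), with cortical genes in blue and thalamic genes in orange. Bars give the SE, dotted lines a fold of 1.5, and all panels share the same 6 Control arrays. Slc17a7 in TNF (1.41) is the largest difference, and the 4 thalamic genes lie between 0.67 and 0.83 in TNF + IL-6 Low.

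Over all genes above the minimum intensity, limma called 0 of 15049 (0%) in each of the 5 comparisons, in the mean of the 5 groups and in the test of any difference among groups, at a Benjamini-Hochberg adjusted p under 0.05. At an unadjusted p under 0.05 there were 796 genes (5.29%) for TNF, 211 (1.4%) for IL-6 Low and 312 (2.07%) for IL-6 High. The count was 1442 (9.58%) for TNF with IL-6 Low, 309 (2.05%) for TNF with IL-6 High, 463 (3.08%) for the mean of the 5 groups and 453 (3.01%) for any difference among groups.

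The 4 thalamic genes moved together among mice of the same group. Over the deviations from group means on 35 arrays, Pearson's r of their 6 pairs ran from 0.863 (Prkcd with Lhx9) to 0.954 (Prkcd with Tcf7l2), with a median of 0.911. Spearman's rank coefficient ran from 0.855 to 0.944, and r without the 2 farthest arrays from 0.813 to 0.937. Within rows E, F, G and H of the arrays the median r was 0.928 (n = 6 arrays), 0.890 (n = 12), 0.870 (n = 11) and 0.974 (n = 6). All points share arrays and a joint normalization, and genes of wide spread were chosen, so these correlations are a description.

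The 4 cortical genes did not form such a set. The r of their 6 pairs ran from -0.126 to 0.385 with a median of 0.165, and the median within rows E to H was 0.214, -0.119, -0.555 and 0.691. Slc17a7 was closer to the thalamic genes, at 0.518 to 0.577, than to Tbr1 (0.218) or Emx1 (0.112). Its r with the mean of the thalamic genes was 0.362, 0.788, 0.402 and -0.215 in rows E, F, G and H, so that relation did not hold in every row. The other 3 cortical genes had r of -0.097 to 0.342 with the thalamic genes. These ranges were compared without a test of their difference.

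**Figure D3:**
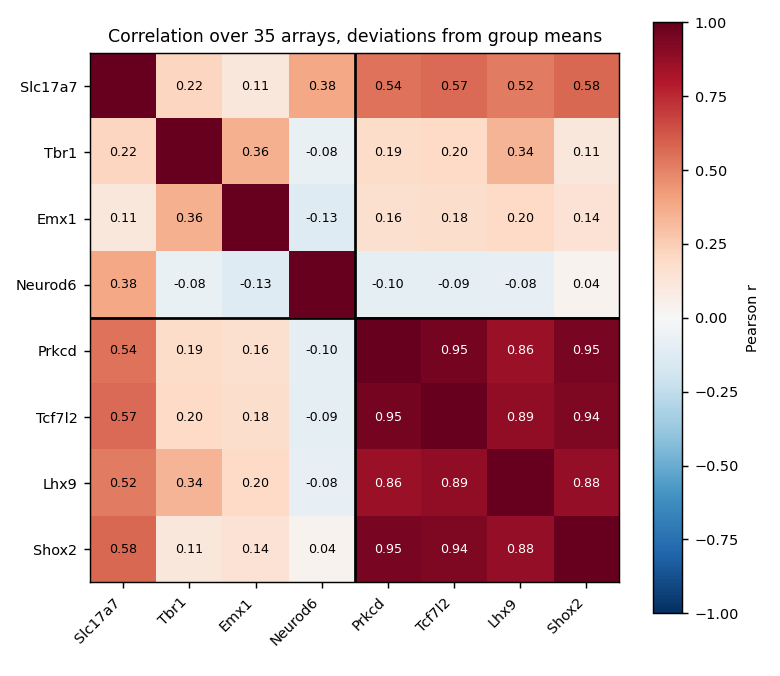
Pearson's r between the 8 genes (both axes, cortical genes first) over 35 arrays, computed on deviations from group means, with colour from -1 in blue to 1 in red. The thalamic block holds 0.863 to 0.954 and the cortical block -0.126 to 0.385, and Slc17a7 has 0.518 to 0.577 with the thalamic genes.

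All 4 thalamic genes lay on the same side of their group means on 28 of 35 arrays, above them on 12 and below on 16, and all 4 cortical genes on 4 of 35. The same array was highest for all 4 thalamic genes in 4 of the 6 groups and lowest in 3 of 6. The mean of their deviations was highest in Control replicate 6 (1.67), TNF + IL-6 High replicate 2 (1.503) and TNF + IL-6 Low replicate 6 (0.92). It was lowest in Control replicate 1 (-1.18), TNF + IL-6 Low replicate 2 (-0.95) and IL-6 Low replicate 2 (-0.91). Control thus held both the highest and the lowest array of the series. For the cortical genes the mean deviation was highest in TNF replicate 6 (1.21) and lowest in Control replicate 1 (-0.70).

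The genes with the pattern most like each member were found over the same 35 arrays among 13992 genes above the minimum intensity, after leaving out small RNAs, segments of T cell receptor and immunoglobulin genes, receptors of the olfactory and vomeronasal families, and genes known only as predictions or clones. Prkcd was followed most closely by Synpo2 (r = 0.979), which encodes an actin-binding protein, Plekhg1 (0.971) and Ptpn3 (0.969), a tyrosine phosphatase. Tcf7l2 was followed by Ntng1 (0.966), the axonal membrane protein netrin G1, Cit (0.963), citron kinase, and Vav3 (0.958). For Shox2 the nearest were Vav3 (0.959), Mctp2 (0.952), a calcium-binding membrane protein, and Adarb1 (0.952), an RNA-editing adenosine deaminase. For Lhx9 they were Kcnc2 (0.926), a voltage-gated potassium channel, Zmat4 (0.925), a zinc finger protein, and Pdp1 (0.917), a pyruvate dehydrogenase phosphatase. Of the 13992 genes ranked by r, the thalamic members stood at ranks 4 to 47 for each other.

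The cortical members had other neighbours, and at lower r. Slc17a7 was followed by Zfp385b (0.841), a zinc finger protein, Sema3e (0.835), a semaphorin, and Gdpd5 (0.787), a phosphodiesterase. For Tbr1 they were Lhx6 (0.864), a LIM homeobox factor of inhibitory neurons born in the ventral telencephalon, Ryr1 (0.832), a calcium release channel, and Eomes (0.815), a T-box factor of cortical progenitors. Neurod6 was followed by St3gal1 (0.746), a sialyltransferase, Hs3st2 (0.725), a heparan sulfate sulfotransferase, and Lamp5 (0.681), a membrane protein of cortical neurons, and Emx1 by Ripor3 (0.711), Cnfn (0.687) and Prkab2 (0.679), a subunit of AMP-activated kinase. Tbr1 ranked 3878th and Emx1 5926th of 13992 genes for Slc17a7.

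Other genes of thalamic neurons moved with the 4 members. The list held Gbx2, Lef1, Rora, Ntng1, Cacna1g, Synpo2, Rgs16, Plekhg1, Ramp3, Tnnt1 and Slc17a6, and all 11 were over the minimum intensity. This list, like those below, was chosen with earlier results of these data known. It holds Synpo2, Plekhg1 and Ntng1, named above as nearest to a member. Its agreement with the members is thus a description and not separate support. The mean of the 11 had r = 0.985 with the mean of the 4 members over 35 arrays, and each of them had r over 0.5, which 8.82% of 13989 genes had. The single r ran from 0.524 for Slc17a6, the vesicular glutamate transporter that hypothalamic neurons use as well, to 0.972 for Plekhg1. The mean of the list was 1.06 above its group mean in Control replicate 6 and 0.66 below it in IL-6 Low replicate 2.

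In the comparison of TNF + IL-6 Low with Control, 11 of the 11 genes had a higher group mean, with a median difference of 0.41, where 44.1% of all genes were higher and the median was -0.02. Synpo2, at 0.59, was the single one past a fold of 1.5, and 0 of 11 passed the adjusted p. In IL-6 Low 11 of 11 were higher (median 0.21, against -0.01 and 45.9% over all genes) and in TNF 0 of 11 (median -0.17, against 0.01 and 55.4%). At the high dose of IL-6 4 of 11 were higher without TNFα (median -0.03, against 52.6% over all genes) and 1 of 11 with it (median -0.12, against 37.7%). Without Control replicate 6 the median turned to 0.07 in TNF (7 of 11 higher), to 0.16 in IL-6 High (9 of 11) and to 0.08 in TNF + IL-6 High (10 of 11). For the IL-6 Low group alone the median was 0.41 when Control replicate 6 was dropped and 0.10 when Control replicate 1 was dropped. For IL-6 Low given with TNF the same medians were 0.64 and 0.28. These counts were over genes that moved together, and no gene of the list passed in any of the groups.

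Most genes listed for the hypothalamus itself ran the other way. The mean of 10 hypothalamic transcription factors had r = -0.854 with the mean of the thalamic members over 35 arrays, and -0.897, -0.902, -0.720 and -0.898 within rows E, F, G and H. Of these 10 genes, 7 had r under -0.5, which 2.49% of 13989 genes had, with Fezf1 at -0.846. The mean of 10 hypothalamic neuropeptides had r = -0.738, with 8 of 10 genes under -0.5, among them Npy at -0.802. The single r ran from -0.823 for Ghrh to 0.205 for Crh, which alone among them was positive. Of 13 neuropeptides listed, these 10 had a cluster of their own. Npy, the appetite-stimulating neuropeptide Y, was the single 1 of them past a fold of 1.5, and only narrowly. It was lower by 0.588 in TNF + IL-6 Low (adjusted p = 0.511, limma), where 0.106% of all genes were lower by this fold. That was the group in which the thalamic members were highest. The part of either set of genes in the values of the other was not tested.

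**Figure D4:**
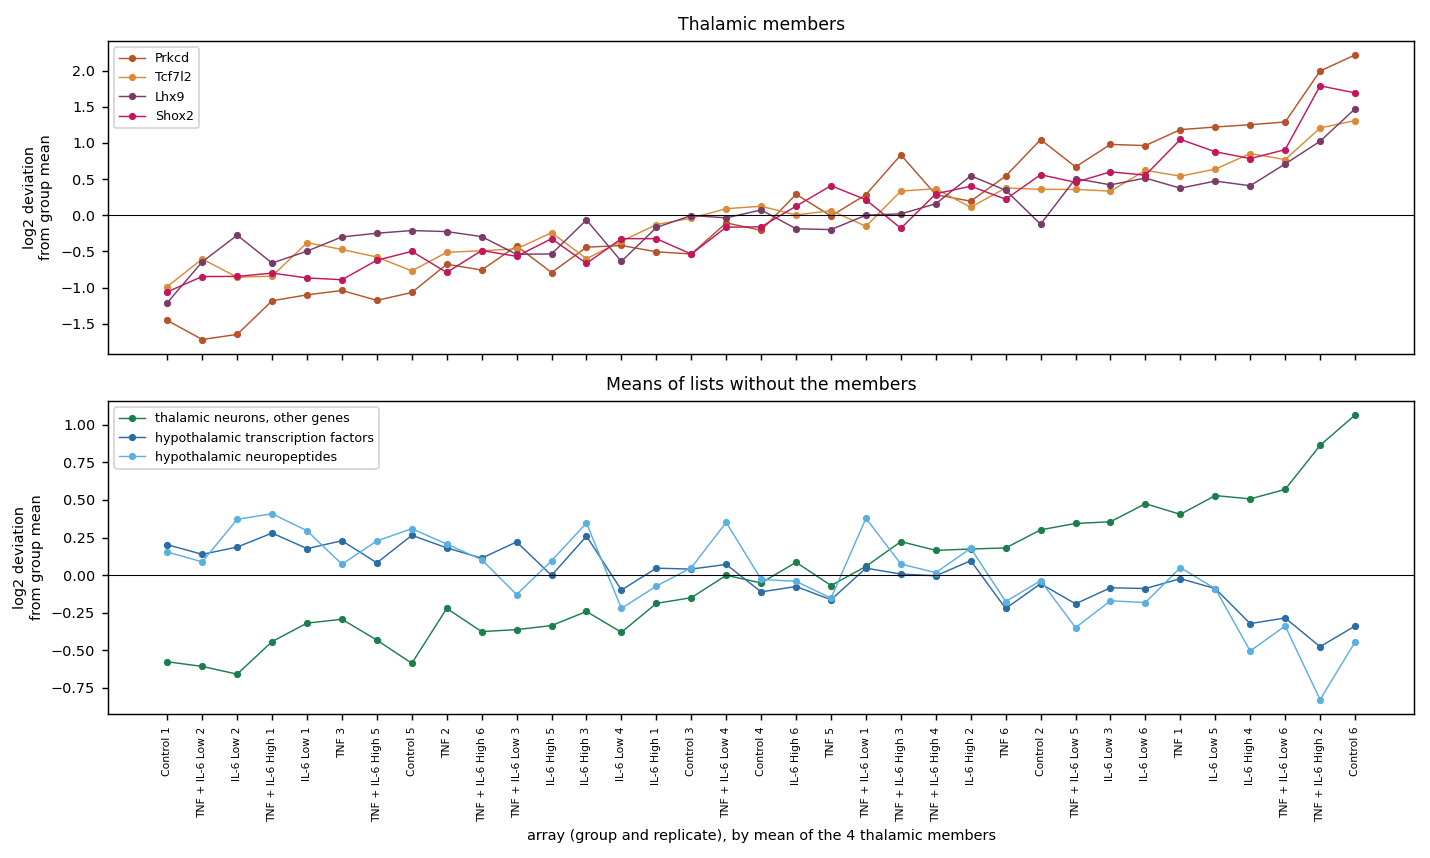
Log2 deviation from the group mean (vertical axes) on 35 arrays, ordered by the mean of the 4 thalamic genes (horizontal axis, group and replicate). The upper panel shows the 4 thalamic genes and the lower panel the means of 11 other thalamic genes, 10 hypothalamic transcription factors and 10 hypothalamic neuropeptides. From Control replicate 1 on the left to Control replicate 6 on the right the other thalamic genes go from -0.58 to 1.06 and the hypothalamic transcription factors from 0.20 to -0.34.

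The lists of other brain regions were less close to the thalamic members. The r of the list mean with the mean of the thalamic members was 0.564 for 8 hippocampal genes, 0.597 for 3 oligodendrocyte genes (Mog, Mag and Mobp), 0.457 for 3 endothelial genes and 0.375 for 2 serotonergic genes. It was -0.449 for 5 genes listed as prethalamic (Dlx1, Dlx2, Dlx5, Dlx6 and Ecel1), -0.089 for 11 other cortical genes and -0.012 for 8 striatal genes. For the remaining lists, of pituitary, cerebellum, habenula, midbrain dopaminergic neurons, meninges, choroid plexus, astrocytes, microglia and blood, it lay between -0.292 and 0.257. The genes of a list did not always move together. In the hippocampal list the single r ran from -0.444 (Grik4) to 0.865 (Iyd), with a median of 0.081 and 3 of 8 over 0.5. In the other cortical list it ran from -0.651 (Rasgrf2) to 0.757 (Cux2). Pituitary genes, of which 5 of 5 had a mean past a fold of 1.5 upward in TNF + IL-6 Low (0.173% of all genes), had r = -0.028 with the thalamic members. That count rested on TNF + IL-6 Low replicate 3, where the pituitary list was 5.32 above its group mean, and was 1 of 5 without it, with a median of -0.05. Meningeal genes, of which 5 of 6 were lower by this fold in the same group (0.106% of all genes), had r = -0.254, and 0 of 6 were past it without Control replicate 1. The part of either list in that comparison was not tested.

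Tbr1 moved with another set. Its r was 0.671 with the mean of 11 other cortical genes, 0.644 with 8 striatal genes and 0.617 with the 5 genes listed as prethalamic. For Slc17a7 the same values were 0.282, 0.111 and -0.428. TNF replicate 6 was the highest array for Tbr1 and for each of these 3 lists, by 0.65, 1.00 and 0.44 above its group mean. In TNF, 8 of 8 striatal genes had a higher mean than in Control (median 0.29), 8 of 11 other cortical genes (median 0.07) and 5 of 8 hippocampal genes (median 0.03), against 55.4% of all genes, and 0 of them passed the adjusted p. Without TNF replicate 6 the counts were 6 of 8, 6 of 11 and 3 of 8, with medians of 0.10, 0.02 and -0.04. TNF replicate 5, the second high array of Slc17a7 and Neurod6, was instead high for the 2 serotonergic genes, by 3.36, and not for other cortical (-0.18) or striatal genes (-0.24). The part of these genes in the difference of Slc17a7 and Neurod6 between TNF and Control was not tested.

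**Figure D5:**
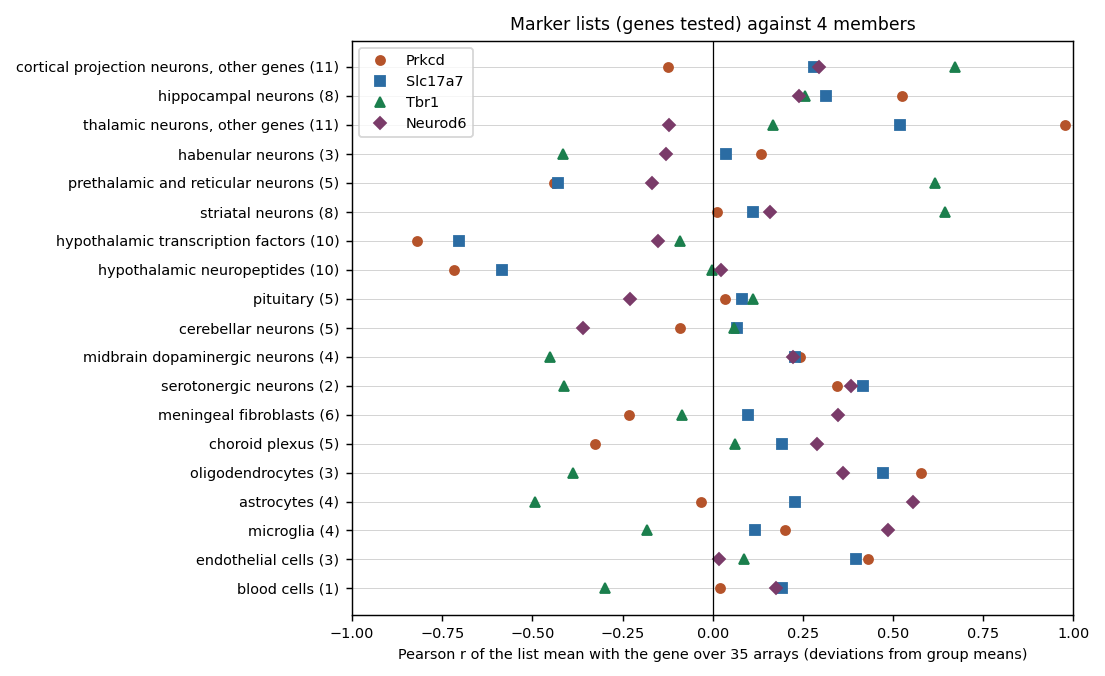
Pearson's r over 35 arrays (horizontal axis) between the mean of each marker list (vertical axis, number of genes tested) and Prkcd, Slc17a7, Tbr1 or Neurod6, on deviations from group means. Prkcd lies at 0.978 for the other thalamic genes and at -0.820 for hypothalamic transcription factors, where Slc17a7 lies at -0.702, and Tbr1 is highest for other cortical genes at 0.671.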

How the data were processed

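RNA of the hypothalami (36 mice, 6 groups of 6) was hybridised to Affymetrix Mouse Gene 1.1 ST arrays, 1 for each mouse. RMA (version not given in the sources used here) was run by the authors, whose deposited log2 intensities entered the analysis unchanged. RMA scales all arrays together. The study's methods describe probes regrouped by Entrez gene, whereas the deposited rows follow the transcript clusters designed for the array. Clusters naming several genes (1881) or none (12457) were left out, and where a gene had several clusters the one of highest mean was used, which gave 18820 genes. Genes were tested if at least 3 of 35 arrays exceeded an intensity of 20 (15049 genes). The methods exclude 1 TNF array without naming it, and TNF replicate 4 was left out here, so TNF had 5 arrays.

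R 4.3.3 and limma 3.58.1 were used (lmFit on all 18820 genes, eBayes with an intensity trend on the 15049), in 1 fit over the 6 groups, with Benjamini-Hochberg adjustment over 15049 genes and a threshold of 0.05. The code was tested on simulated data. Members' SEs, that of Neurod6 included, are from lmFit before eBayes, and correlations used deviations from group means (python 3.11.15). The arrays are taken as separate mice, and their number limits the precision. The 8 genes and the marker lists (126 other genes) were chosen with earlier results of these data known, and list genes without a cluster of their own were left out. Genes named besides the members were the 3 most correlated with each, in each list up to 4 of largest SD within groups, and list genes past a fold of 1.5. Others were named after their values were seen, as ends of a range, members of a short list or markers of the tissue. Replicate numbers were tested as pairs: same-numbered arrays had a median correlation of 0.069 over 85 pairs, and 36 were over 0.1. The median of the 425 other pairs was -0.027. Same-numbered arrays were not taken as paired in the main fit, and a fit with replicate number as a block is given below. Alternatives were all 36 arrays, other filters, normalizations and variance models, weighted arrays, fits limited to the compared groups, blocks for replicate number and array row, the mean of a gene's clusters, no Control replicates 5 and 6, and each array left out in turn. For the marker lists, leaving out each array was added after seeing the data.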

Additional observations from a re-analysis of the deposited data

Results flagged for a closer look

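Among the 8 genes in 6 groups, 1 of 48 sets of values held an array far from the others. Tbr1 in Control replicate 1 was 4.44, and the nearest Control array was 5.64. The gap was 0.672 of the range of the group, above Dixon's critical value of 0.625 for 6 arrays. Chance alone marks about 1 set in 20, or 2.4 of 48. The same array was the lowest of all 35 for Slc17a7, Prkcd, Tcf7l2, Lhx9 and Shox2.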

How the results depend on the processing

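No setting called a gene in any comparison at an adjusted p under 0.05, and no difference of a member moved by more than its SD within groups. At an unadjusted p under 0.05 the count depended on the setting: in TNF 583 to 1563 genes (521 to 1353 with 1 array left out), in IL-6 Low 64 to 493 (177 to 382), in IL-6 High 98 to 514 (224 to 408), in TNF + IL-6 Low 278 to 1873 (634 to 2315), in TNF + IL-6 High 75 to 1025 (284 to 525), for the mean of the 5 groups 148 to 778 (336 to 782) and for any difference 211 to 1120 (267 to 884). The cause was not tested. With the replicate number as a block the number of genes called stayed at 0 in all 7 comparisons, with 805 genes at an unadjusted p under 0.05 in TNF and 1613 in TNF + IL-6 Low, and 11 of 35 arrays correlated best with an array of their own number. The median r of the 6 thalamic pairs was 0.796 with all 36 arrays and 0.893 to 0.920 with 1 array left out. That of the cortical pairs was -0.005 without TNF replicate 6.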
